A study of Mus musculus with 6 samples.

Results

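The calcium entry, store and pump genes of the mouse aortic wall were followed here through 10 members: Cacna1c, Cacna1h, Cacnb2, Itpr1, Atp2a2, Atp2b1, Atp2b4, Stim1, Orai1 and Trpc1. They were chosen by name for their role in moving calcium, with earlier results of these data known. The rule itself uses no measured value, and all 10 were found by Ensembl identifier among the 52636 genes of the count table. The study targeted both TGF-β receptors in smooth muscle of adult mice and sequenced RNA of the whole thoracic aorta. There were 4 WT libraries, from untreated C57BL/6J mice, and 2 KO libraries, from Tgfbr1/2iSMCKO mice, all at 12 weeks of age. The KO mice carried loxP-flanked alleles of both TGF-β receptor genes, an inducible Cre (Myh11-CreERT2) and a fluorescent reporter (mT/mG), and had been injected with 2 mg of tamoxifen daily over 5 days from an age of 11 weeks. Myh11 drives the transgene in smooth muscle cells, so other cells of the wall keep their receptor genes. The insertion lies on the Y chromosome, so KO mice were male, and the study states that its aortas came from male mice. No library came from mice with these alleles and no tamoxifen, so the effects of receptor loss, tamoxifen, Cre and reporter cannot be told apart. The numbers of mice given for both groups in the study equal their numbers of libraries, and p-values measure the spread between these 6 libraries.

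Calcium enters smooth muscle cells through voltage-gated channels, whose pore is formed by an alpha1 subunit and whose surface density and gating depend on beta subunits. It is also released from the sarcoplasmic reticulum through inositol trisphosphate receptors, and raised calcium activates myosin light chain kinase and contraction. SERCA pumps return calcium to the store, PMCA pumps expel it across the plasma membrane, and an emptied store is sensed by STIM proteins, which open ORAI channels.

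Stim1, which encodes a store calcium sensor, rose in KO aortas and was the one member to pass the test. The normalised count averaged 857 ± 93.4 in WT (SD, n = 4) and 1761 ± 185 in KO (SD, n = 2), a fold change of 2.06. Among the other 9 members, the fitted fold change was smaller and the adjusted p was between 0.168 and 0.931. By DESeq2, 1 of 10 members passed adjusted p 0.05, beside 10.4% of the 17070 genes tested (5.71% higher and 4.69% lower), so the members' share was near that of all genes. The median log2 fold change of the members was 0.07 and that of all genes tested was 0.01. At an unadjusted p under 0.05, 3 members passed (Stim1, Atp2b4 and Cacna1h), beside 22.2% of genes tested. In 3 members (Stim1, Atp2b4 and Cacnb2) both KO libraries lay outside the WT range, as they did for 34.3% of genes tested.

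**Figure D1:**
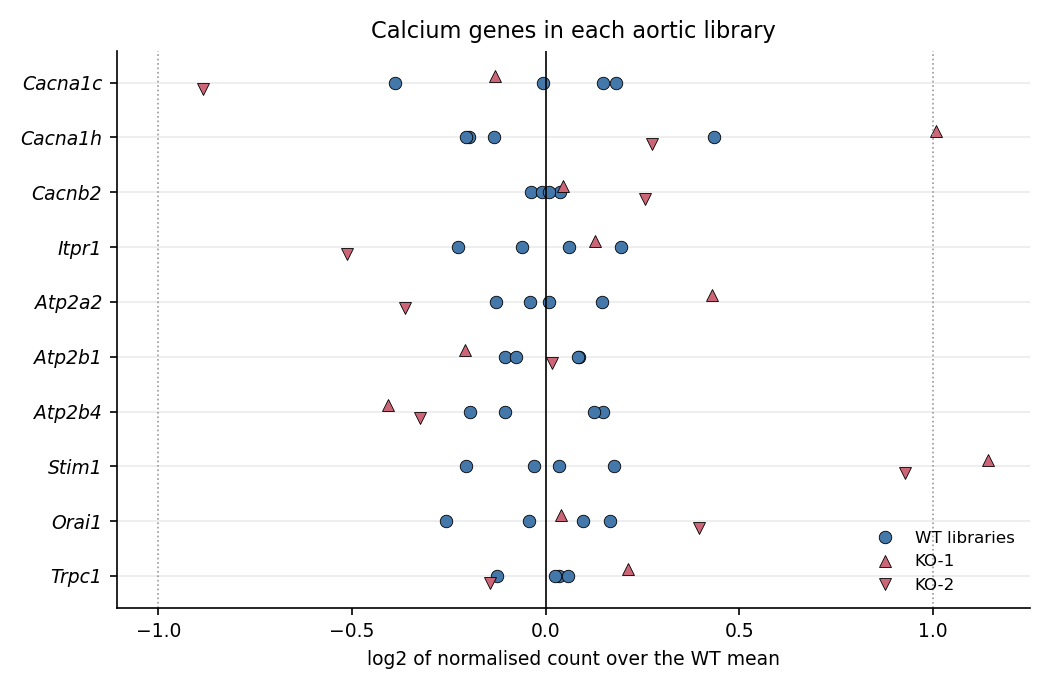
Normalised counts of the 10 members in each library, as log2 of the ratio to the WT mean of the same gene (x axis), 1 gene per row. Circles are the 4 WT libraries and triangles the 2 KO libraries, with dotted lines at a 2-fold difference. Both KO libraries of Stim1 lie to the right of every WT library, at 1892 and 1630 normalised counts against at most 967.9, and in Cacna1c, Cacna1h, Itpr1 and Atp2a2 the KO libraries lie far from each other.

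The libraries held between 19650983 and 28860598 counts. Mitochondrial transcripts took 2.62% to 4.44% of counts in the 5 libraries other than KO-2 and 11.7% in KO-2. The targeted receptor genes had overlapping counts in the groups, with log2 fold changes of 0.20 ± 0.20 (SE) for Tgfbr1 and -0.09 ± 0.18 (SE) for Tgfbr2, neither past the test (adjusted p by DESeq2 0.63 and 0.838). These gene-level counts do not resolve the loxP-flanked exons and do not check the genotype, so KO-1 and KO-2 stand for libraries labelled KO throughout. Smooth muscle markers were abundant in all libraries, with summed normalised counts of 912600 to 1072000 in WT, 873700 in KO-1 and 1028000 in KO-2. Of these markers 0 of 9 passed in DESeq2 or edgeR, with 4 at an unadjusted p under 0.05. In 6 of the 9 both KO libraries lay outside the WT range, beside 34.3% of all genes tested. Both were lower for Tagln, Cnn1 and Smtn and higher for Myh11, Synpo2 and Des. Many markers of other cells were higher in KO, and all that passed adjusted p 0.05 in DESeq2 were higher. They were 7 of 11 tested cardiac muscle, 4 of 8 endothelial, 3 of 8 fibroblast, 7 of 8 macrophage and 5 of 5 mesothelial markers. They also included 4 of 4 tested red blood cell, 3 of 6 brown and 2 of 6 white adipocyte markers. Endothelial Egfl7 went the other way, at 1023 to 1466 normalised counts in WT, 854.4 in KO-1 and 810.0 in KO-2. Egfl7 did not pass (log2 fold change -0.48, DESeq2 adjusted p = 0.131). By edgeR, 5 cardiac, 3 endothelial, 2 fibroblast, 3 macrophage, 3 mesothelial, 4 red blood cell, 2 brown and 1 white adipocyte marker passed. None of 6 tested lymphocyte, 5 tested skeletal muscle and 4 Schwann cell markers passed in DESeq2 or edgeR (2, 1 and 1 at an unadjusted p under 0.05). In these bulk samples, fewer cells of a type and less RNA per cell cannot be told apart.

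Length decides how many counts a gene collects, so levels of different genes were compared per kilobase of exon. In WT, Atp2a2, the SERCA2 pump of the store, stood first at 4510 ± 360 normalised counts per kilobase (SD, n = 4). Atp2b4, which encodes the plasma membrane pump PMCA4, followed at 1280 ± 149, and Itpr1, the type 1 inositol trisphosphate receptor, at 545 ± 67.0. Store and extrusion pumps and the release channel thus made up the top of the list. Atp2b1 (the pump PMCA1, 177 ± 12.5), Cacna1c (167 ± 28.1) and Orai1 (141 ± 17.7) came next, and neighbours in this order differed by no more than the larger of their SDs. Stim1 at 82.6 ± 9.0, Cacnb2 at 69.0 ± 1.49 and Trpc1 at 51.7 ± 2.89 followed, and Cacna1h was lowest at 12.0 ± 2.82. In KO, Stim1 averaged 170 ± 17.8 (SD, n = 2) on the same scale, close to Atp2b1 at 166 ± 18.2 and Orai1 at 165 ± 28.8, and above Cacna1c at 121 ± 43.8.

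**Figure D2:**
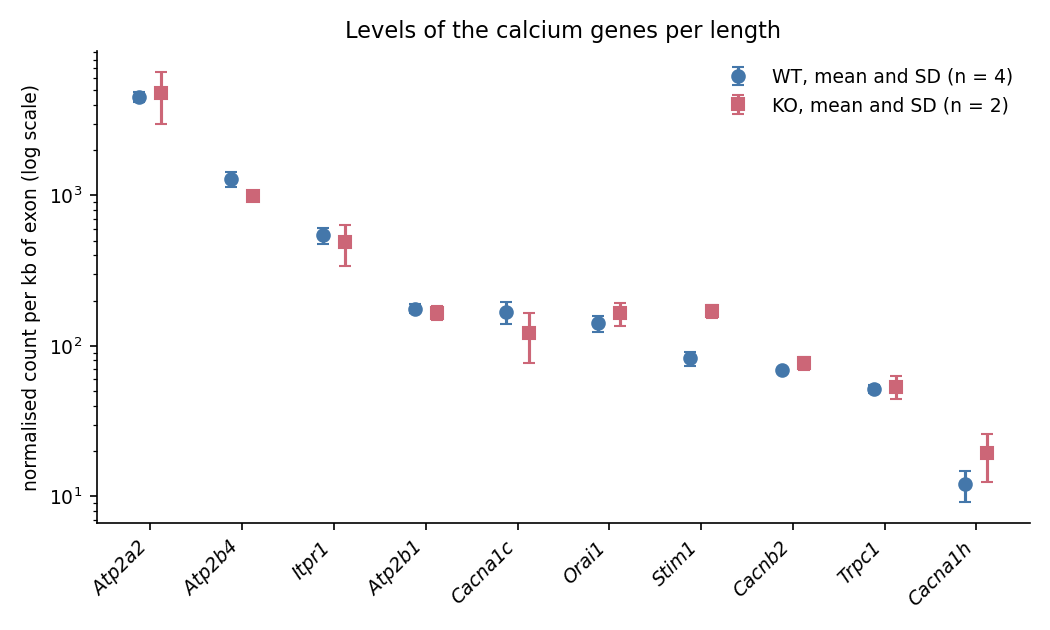
Normalised counts per kilobase of exon for the 10 members (y axis, log scale), ordered by WT level. Circles are WT means (n = 4), squares KO means (n = 2) and bars the SD. Atp2a2 averages 4510 in WT and 4780 in KO, and Stim1 averages 82.6 in WT and 170 in KO, where it sits at the level of Orai1 and Atp2b1.

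Voltage-gated entry was represented by the pore genes Cacna1c and Cacna1h and the beta subunit gene Cacnb2, and none passed the test. Cacna1c encodes the pore of the L-type channel CaV1.2, the main route of depolarisation-driven calcium entry in arterial muscle (chr6:118587240-119196418, GRCm38). The WT libraries, in numerical order, had 2698, 3514, 3914 and 4006 normalised counts, KO-1 had 3226 and KO-2 had 1913. KO-1 lay inside the WT range and KO-2 below every other library. The log2 fold change was -0.46 ± 0.25 (SE), with a 95% interval of -0.94 to 0.02 and a DESeq2 adjusted p of 0.257. Without KO-1, with the lone KO library assumed to vary as WT libraries do, it was -0.88 with an adjusted p of 0.00619 (a fit in which 15.9% of genes tested passed), and without KO-2 it was -0.12 with an adjusted p of 0.864, so a single library decides whether Cacna1c passes. KO-2 was also the library with the high mitochondrial share, whose part in the result was not tested.

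Cacna1h, the T-type pore CaV3.2, which opens at low voltage, was scarce (chr17:25374285-25433783). Normalised counts in WT were 106.5, 158.1, 101.9 and 101.3, and those in KO were 235.2 and 141.4. KO-2 lay between WT-2 and the other WT libraries, so the groups overlapped. The log2 fold change was 0.69 ± 0.35 (SE; 95% interval 0.01 to 1.37), with an unadjusted p of 0.0466 that did not pass after adjustment in DESeq2 (adjusted p = 0.217). Cacnb2, a beta subunit that brings the pore to the membrane, was the steadiest member among WT libraries, with a coefficient of variation of 2.16% (chr2:14603088-14987908). Its 4 WT libraries held 888.6, 907.0, 935.7 and 917.8 normalised counts, and KO-1 and KO-2 held 940.9 and 1089. Both KO libraries were above all WT libraries, KO-1 by a narrow margin, and the log2 fold change of 0.15 ± 0.17 (SE) did not pass (DESeq2 adjusted p = 0.673).

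Related channel subunits did not pass either. Cacnb3, another beta subunit, had 403 normalised counts per kilobase in WT and took 71.9% of the Cacnb family on that scale, against 12.5% for Cacnb2. Cacnb3 did not pass (DESeq2 adjusted p = 0.306, log2 fold change -0.34). Cacna2d1, the alpha2delta subunit that helps the pore reach the surface, changed by -0.34 on the log2 scale (adjusted p = 0.186), and in both genes the 2 KO libraries lay below the WT range. Cacna1c took 53.4% of the summed level of the 6 tested pore genes per kilobase in WT and 42.3% and 37.6% in KO-1 and KO-2. Of 6 tested pore genes and 10 tested auxiliary genes, 0 passed by DESeq2, while 2 and 3 had an unadjusted p under 0.05. By edgeR with its low-count filter, which called 6.18% of genes tested and 1 member, 0 of both passed as well.

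The release channel and the store pump did not pass, and their KO libraries lay far apart. Itpr1 (chr6:108213096-108551109) held 8538, 9583, 10420 and 11430 normalised counts in the WT libraries, 10920 in KO-1 and 7001 in KO-2. KO-1 was among the higher WT libraries and KO-2 was the lowest of all 6. The group difference was -0.16 ± 0.22 on the log2 scale (SE; 95% interval -0.58 to 0.27; DESeq2 adjusted p = 0.745). Atp2a2 (chr5:122453513-122502225) held 25100, 26640, 27580 and 30310 normalised counts in WT, 36880 in KO-1 and 21300 in KO-2. Here the KO libraries stood on opposite sides of the WT range, 1.73-fold apart, where WT libraries differed by at most 1.21-fold. The log2 fold change was 0.09 ± 0.22 (SE; 95% interval -0.35 to 0.52; adjusted p = 0.879).

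Atp2a2 is also the pump of heart muscle, and the same libraries differed in cardiac markers. The summed cardiac marker level was 822.6 to 1941 normalised counts in WT, 27020 in KO-1 and 3454 in KO-2. Myl2 and Nppb, ventricular myosin light chain and a natriuretic peptide, were at 0 in every WT library, and Nppb was at 0 in KO as well. Myl2 was at 19.73 in KO-1 and 377.4 in KO-2, against the order of the sum. Myh7 (40.22 and 194.2) and Myl3 (3.794 and 52.85) also ran against that order. Myh6 held 10310 in KO-1 but, at 113.1, lay inside the WT range in KO-2. Genes of the heart muscle store were, like that sum, higher in KO-1 than in KO-2. Pln, which encodes the SERCA inhibitor phospholamban, held 140.6 to 230.7 normalised counts in WT, 1346 in KO-1 and 299.9 in KO-2 and rose by 2.15 ± 0.44 on the log2 scale (SE; DESeq2 adjusted p = 6.23e-05). Casq2, the cardiac calcium buffer of the store, held 10.98 to 21.93 in WT, 729.2 in KO-1 and 19.67 in KO-2 (log2 fold change 4.48, adjusted p = 0.00692). Sln, the atrial SERCA inhibitor sarcolipin, held at most 27.46 in WT, 487.1 in KO-1 and 0 in KO-2 and did not pass (adjusted p = 0.414).

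Without KO-1, neither Pln (log2 fold change 0.69, DESeq2 adjusted p = 0.25) nor Casq2 (0.23, adjusted p = 0.912) passed, and Pln was also lost without WT-1 (adjusted p = 0.0865). The part of the cardiac markers in these results was not tested. Most of the annotated exon length of Pln (59.6%) is shared with Gm47644 on the opposite strand, and whether counting used strand is not stated. Ryr2, the ryanodine receptor of heart and arterial muscle, held 2291 to 2667 normalised counts in WT, 3100 in KO-1 and 1368 in KO-2 (log2 fold change -0.13, adjusted p = 0.848), and without KO-1 its log2 fold change was -0.84 (adjusted p = 1.36e-04).

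The remaining inositol trisphosphate receptors were minor on the per-kilobase scale. Itpr1 took 82.8% ± 0.51 of the family in WT (SD, n = 4), 83.2% in KO-1 and 72.9% in KO-2. Itpr2 did not pass (adjusted p by DESeq2 0.302, log2 fold change 0.37), except without KO-1 (adjusted p 0.00832, log2 fold change 0.65). Itpr3 was level between groups at -0.01 on the log2 scale (adjusted p = 0.99). Ryr3 was at 6.99 to 40.97 normalised counts in all libraries (adjusted p = 0.651). Atp2a3, the SERCA3 pump, held the rest of the store pump family beside Atp2a2, 11.7% per kilobase in WT, with a log2 fold change of 0.20 (adjusted p = 0.542). None of these relatives separated the groups in the fit with all 6 libraries.

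The clearest losses around the store were in genes outside the 10 members. Casq1, the calsequestrin best known from skeletal muscle, fell from 3444 ± 660 to 886 ± 344 normalised counts, by 1.96 ± 0.26 on the log2 scale (SE; DESeq2 adjusted p = 6.96e-12). Jph2, a junctophilin that ties the store to the plasma membrane, fell from 18310 ± 3077 to 7380 ± 1768, by 1.31 ± 0.22 (adjusted p = 1.2e-07). In both genes each KO library was below each WT library, and both passed in all 12 alternative fits. Part of the exon length of Casq1 (8.0%) is shared with Gm17224 on the opposite strand. Skeletal muscle markers, by comparison, summed to 171.2 to 243.8 in WT, 672.3 in KO-1 and 202.8 in KO-2. Ckm alone held 608.5 of the sum in KO-1, and Myh1 and Myh2 were at 0 in every library. Of the 12 tested store pump and buffer genes, 2 rose (Pln and Casq2) and 2 fell (Casq1 and Jph2).

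Among the plasma membrane pumps, Atp2b4 made up 86.1% ± 1.24 of the RNA level of the tested PMCA genes per kilobase in WT. This share leaves out the exchangers, and calcium transport was not measured. Atp2b4 (chr1:133699457-133801041) held 13640, 14530, 17330 and 17030 normalised counts in WT, 11780 in KO-1 and 12490 in KO-2. Both KO libraries were lower than all WT libraries. The log2 fold change was -0.37 ± 0.17 (SE; 95% interval -0.70 to -0.03), with an unadjusted p of 0.0312 and a DESeq2 adjusted p of 0.168, and the adjusted p was 0.0816 to 0.825 over 12 alternatives. Atp2b1 (chr10:98914406-99026143) held 2866, 2511, 2858 and 2560 in WT and 2338 and 2729 in KO. KO-1 was the lowest library and KO-2 lay among WT (log2 fold change -0.09 ± 0.17, SE; 95% interval -0.42 to 0.23; adjusted p = 0.817).

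Another pump of the same family did pass. Atp2b2, or PMCA2, held 209.8, 301.7, 485.3 and 391.6 normalised counts in WT and 112.3 and 126.6 in KO, and fell by 1.54 ± 0.34 on the log2 scale (SE; DESeq2 adjusted p = 2.03e-04). With the replicate number as a block its adjusted p was 0.197. At 27.5 normalised counts per kilobase in WT, Atp2b2 was a small part of the family (1.82%). Slc24a3, a potassium-dependent sodium/calcium exchanger, rose from 1479 ± 138 to 2174 ± 79.4 normalised counts, by 0.56 ± 0.17 (SE; adjusted p = 0.0163), and did not pass in 5 of 12 alternatives. Slc8a1, the sodium/calcium exchanger NCX1, was higher in both KO libraries than in any WT library, at 1021 and 956.3 against at most 868.7, and did not pass (log2 fold change 0.44, adjusted p = 0.187).

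Store-operated entry held the one change among the members. Stim1 (ENSMUSG00000030987.5, chr7:102267806-102437319, plus strand) held 742.5, 839.7, 877.8 and 967.9 normalised counts in the WT libraries, 1892 in KO-1 and 1630 in KO-2. The groups did not overlap. The 2 KO libraries differed by 1.16-fold and the 4 WT libraries spanned 1.3-fold, though ranges over 2 and 4 libraries are not directly comparable. The log2 fold change was 1.04 ± 0.19 (SE; 95% interval 0.67 to 1.41), which is 2.06-fold with an interval of 1.59 to 2.65, at a DESeq2 adjusted p of 2.21e-06. Stim1 was thereby 1 of the 962 genes (5.64% of those tested, 3.54% higher) past both adjusted p 0.05 and a 2-fold change. It passed adjusted p 0.05 in all 12 alternative fits, with log2 fold changes of 0.93 to 1.15 and adjusted p of 3e-07 to 0.0111, in fits that called between 3.65% (edgeR with no filter) and 15.9% (DESeq2 without KO-1) of genes tested. The cardiac, adipocyte, mesothelial and red blood cell marker sums were above every WT library in both KO libraries, but very unequal between the 2. They were 27020 and 3454 for cardiac muscle against at most 1941 in WT, and 773.2 and 11610 for brown adipocytes against at most 710.7. Mesothelial sums were 848.3 and 2208 against at most 408.4. The Stim1 log2 fold change was 1.15 without KO-2 and 0.93 without KO-1. Macrophage, endothelial and fibroblast marker sums were also raised in both KO libraries, and differed less between them. They were 15520 and 17790 for macrophages against at most 10830 in WT, 32430 and 31380 for endothelium against at most 22890, and 146600 and 169300 for fibroblasts against at most 127300. The part of any of these cell types in the Stim1 result was not tested.

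Neither Orai1 nor Stim2 passed, and in both the groups overlapped. Orai1, the pore that STIM1 opens (chr5:123015074-123030456), held 363.6, 271.2, 346.5 and 314.3 normalised counts in WT and 333.1 and 426.5 in KO. KO-1 lay inside the WT range and KO-2 above it (log2 fold change 0.23 ± 0.24, SE; 95% interval -0.24 to 0.69; DESeq2 adjusted p = 0.641). Stim2, the other store sensor, held 517.4, 731.0, 786.9 and 813.4 in WT, 1077 in KO-1 and 607.2 in KO-2 (log2 fold change 0.24, adjusted p = 0.677). Per kilobase, Stim1 made up 35.6% to 41.5% of Stim1 and Stim2 together in the WT libraries, 46.5% in KO-1 and 57.1% in KO-2. This share was given no test.

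Among the other ORAI pores, Orai2 was scarce, at 20 normalised counts per kilobase in WT and 23 in KO (log2 fold change 0.20, DESeq2 adjusted p = 0.751), although both KO libraries, at 138.1 and 141.4 normalised counts, were above every WT library (at most 128.5). Orai3 varied widely within WT, with 1041, 292.8, 249.7 and 1099 normalised counts, and reached 1081 and 1250 in KO (log2 fold change 0.80, adjusted p = 0.619). The WT libraries thus split into a low and a high pair, and KO was near the high pair. Over the 8 store-operated entry genes tested, 1 rose and 0 fell by DESeq2, and 2 had an unadjusted p under 0.05. In 3 of the 8 both KO libraries lay outside the WT range. Besides Stim1 and Orai2 this was Tmem110, an endoplasmic reticulum protein that acts with STIM1, named here after its values were seen. It held 6111 to 7963 normalised counts in WT, 5924 in KO-1 and 4216 in KO-2 and did not pass (log2 fold change -0.51, adjusted p = 0.084).

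**Figure D3:**
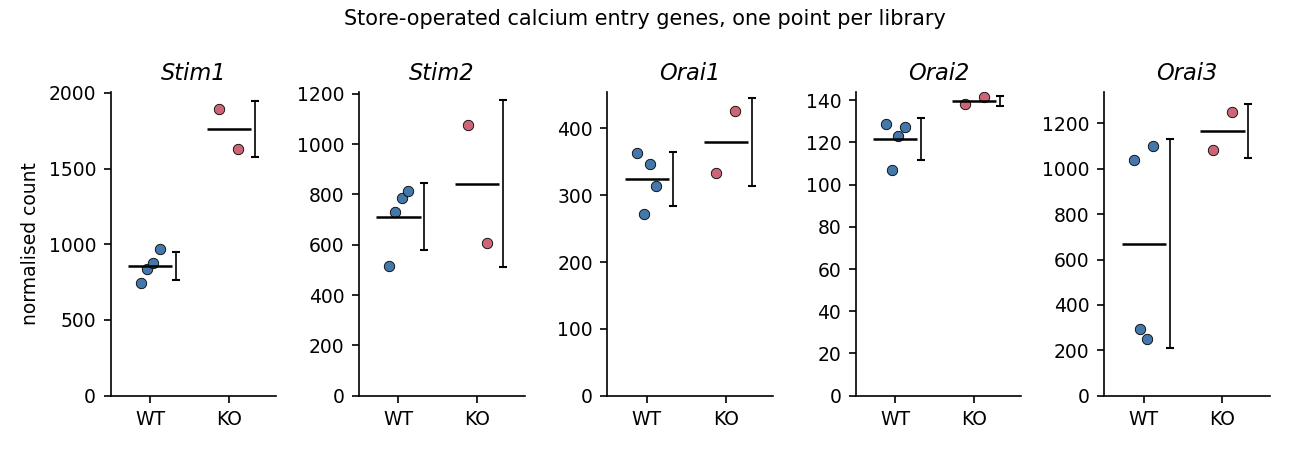
Normalised counts of the STIM and ORAI genes in each library (y axis, starting at 0), WT at the left and KO at the right of each panel. Points are libraries, horizontal lines group means and vertical bars the SD. Stim1 separates the groups, at 742.5 to 967.9 in WT and 1630 and 1892 in KO, whereas Stim2 and Orai1 overlap and Orai3 is split within WT.

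The stretch upstream of Stim1 is shown because this gene changed, and that of Orai1 for comparison, each up to the first annotated exon. Promoter sequences for 7 of the 10 members were matched by symbol in the RefSeq set for GRCm38.p6, over 11 windows of 250 bases before a start. The Stim1 stretch is chr7:102267569-102267805 and the Orai1 stretch chr5:123014824-123014994, both on the plus strand, read 5′ to 3′.
Stim1: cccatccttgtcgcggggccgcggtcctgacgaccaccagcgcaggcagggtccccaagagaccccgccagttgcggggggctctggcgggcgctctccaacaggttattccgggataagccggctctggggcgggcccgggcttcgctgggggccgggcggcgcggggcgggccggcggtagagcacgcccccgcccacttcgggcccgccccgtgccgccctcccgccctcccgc
Orai1: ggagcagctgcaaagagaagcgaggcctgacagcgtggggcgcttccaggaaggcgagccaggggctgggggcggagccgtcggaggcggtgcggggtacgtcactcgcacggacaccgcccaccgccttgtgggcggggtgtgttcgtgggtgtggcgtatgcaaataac
No letters are in capitals because no searched motif was found. The full Stim1 window had a GC content of 78.4% and that of Orai1 70.8%, against a median of 52.4% over 32851 promoters. On both strands, neither window held a CArG box (present in 1.47% of all promoters), CAGAC, the core of a Smad site (42.2%), the E-box CACGTG (6.02%), the AP-1 site TGANTCA (6.75%) or the TEAD site GGAATG (12.6%). Elsewhere among the members, CAGAC occurred in 2 of 3 Cacna1c windows and in that of Trpc1, and GGAATG in that of Atp2b4.

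By the similarity rule, the genes whose log2 normalised counts followed Stim1 most closely over the 6 libraries were Fam210a (Pearson r = 0.9987), Itsn1 (r = 0.9973) and Clock (r = 0.9966), out of 11446 genes with a mean of at least 100. Clock, a transcription factor of the circadian oscillator, held 1229, 1408, 1428 and 1606 normalised counts in WT and 2911 and 2372 in KO. Of the genes searched, 637 (5.57%) had r above 0.9. The correlations are descriptive and share the group difference and the library scaling.

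Trpc1, a cation channel subunit linked to store-operated and receptor-operated entry (chr9:95705082-95750375), held 381.1, 425.7, 422.4 and 432.3 normalised counts in WT, 481.1 in KO-1 and 376.1 in KO-2. The KO libraries were on either side of the WT range, as for Atp2a2. The log2 fold change was 0.05 ± 0.21 (SE; 95% interval -0.37 to 0.46; DESeq2 adjusted p = 0.931). Of its relatives, Trpc4 had counts in WT-1 alone and Trpc6 was at 0 in every library.

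Other genes of the TRP and mechanosensitive class did fall. Pkd1, or polycystin-1, a mechanosensory partner of TRP channels, fell from 22380 ± 935 to 11240 ± 3394 normalised counts, by 0.99 ± 0.20 on the log2 scale (SE; DESeq2 adjusted p = 2.46e-05). A small part of its exon length (3.98%) is shared with Tsc2 on the opposite strand. Trpm4, a calcium-activated cation channel that depolarises the membrane, fell from 1253 ± 202 to 661 ± 106, by 0.92 ± 0.22 (adjusted p = 6.27e-04). All KO libraries were below all WT libraries in both genes, and both passed in all 12 alternatives. Of 14 tested TRP, mechanosensitive and ATP-gated genes, 2 fell and 0 rose. In mitochondrial calcium handling 1 of 9 tested genes passed: Slc8b1, the mitochondrial sodium/calcium exchanger, fell by 0.83 ± 0.28 (SE; adjusted p = 0.0301), a call lost in 7 of 12 alternatives. None of 13 tested calcium sensors and effectors passed by DESeq2 or edgeR, and 2 had an unadjusted p under 0.05.

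**Figure D4:**
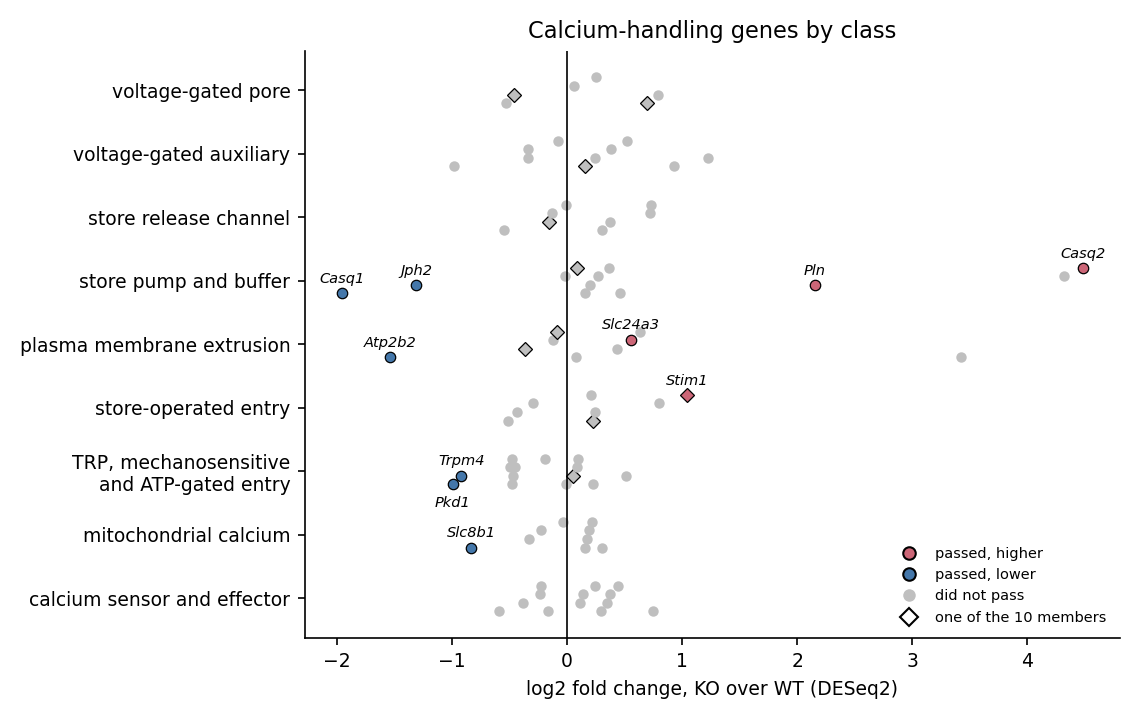
DESeq2 log2 fold change, KO over WT (x axis), of the 89 tested genes of the wider calcium list, by class (rows). Diamonds are the 10 members, colored points passed adjusted p 0.05 and grey points did not. Stim1 is the colored diamond at 1.04, and Casq1 at -1.96, Atp2b2 at -1.54 and Jph2 at -1.31 lie farthest to the left among the genes that passed.

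In total the wider list of 106 genes had 89 with an adjusted p, of which 4 rose and 6 fell (11.2%, beside 10.4% of all genes tested), with a median log2 fold change of 0.11. The other 17 had too few counts for an adjusted p. Without the 10 members, 3 of 79 rose and 6 fell.

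**Figure D5:**
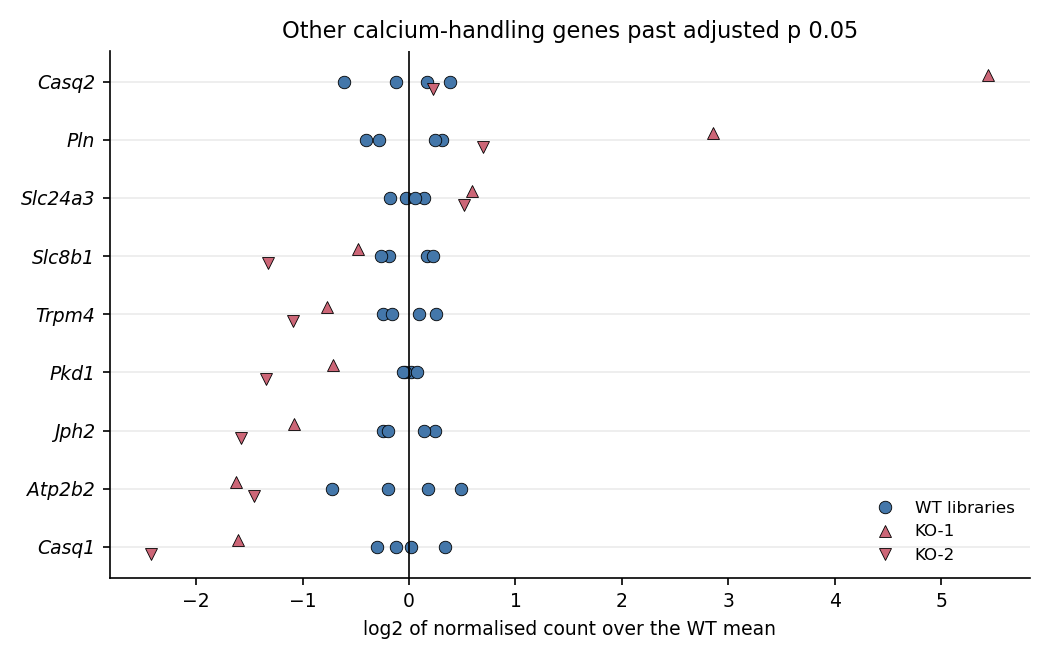
The 9 genes of the wider list that passed adjusted p 0.05 and are not among the 10 members, as log2 of the ratio of each library to the WT mean (x axis). Circles are WT libraries and triangles KO libraries. For the 6 genes that fell, both KO libraries lie left of all WT libraries, and for Casq2 and Pln KO-1 lies far to the right of KO-2, at 729.2 against 19.67 and at 1346 against 299.9 normalised counts.

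Members also differed from each other in how they varied between libraries. WT-1 was the lowest and WT-4 the highest WT library for Cacna1c, Itpr1, Atp2a2, Stim1 and Trpc1. KO-2 was the lowest of all 6 libraries for Cacna1c, Itpr1, Atp2a2 and Trpc1, which are held by the membrane or the store as entry channel, release channel, pump and TRP subunit. Over the 6 libraries, Pearson's r of log2 values was 0.93 between Cacna1c and Itpr1 and 0.95 between Atp2a2 and Trpc1, as a description of points that share their library and its scaling. Stim1 did not follow this order in KO, where both libraries were high. The coefficient of variation within WT ran from 2.16% for Cacnb2 to 23.5% for Cacna1h, the least abundant member.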

How the data were processed

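Counts of RNA-seq reads per gene in thoracic aortas (4 WT, 2 KO) were analysed. The authors trimmed reads with Trim Galore, aligned them to GRCm38 with HISAT2 and quantified GENCODE M15 genes with StringTie, and the deposited values are whole-number counts per gene, not scaled for depth. How whole numbers were obtained and whether strand was used are not given in the sources used here. Columns carried codes that were matched to libraries by their numbering (4 columns of one code, 2 of another). Of 52636 genes, 27151 were at 0 throughout. Counts were fitted in DESeq2 1.42.0 (R 4.3.3), with group as the sole term, default size factors, Wald tests and Benjamini-Hochberg adjustment over all genes (independent filtering at 0.05, 17070 genes with an adjusted p). Values are normalised counts, counts divided by size factors. Gene positions and exon lengths came from GENCODE M21, which held 52489 of the identifiers. Scripts were tested on simulated data.

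Genes named were all members, every gene of 9 calcium lists past adjusted p 0.05, relatives of members fixed by name (Cacnb3, Cacna2d1, Itpr2, Itpr3, Ryr2, Ryr3, Atp2a3, Pln, Sln, Atp2b2, Slc8a1, Stim2, Orai2, Orai3, Trpc4, Trpc6), Tgfbr1, Tgfbr2 and the 3 genes most correlated with the member of smallest adjusted p. There is 1 further gene under this rule that is not reported here. Members and lists were chosen with earlier results of these data known. Alternatives were edgeR 4.0.16 quasi-likelihood tests with and without filterByExpr, TMM or total-count scaling in DESeq2, a minimum of 10 summed counts without independent filtering, each library left out, and a block for the replicate number. No libraries were duplicates: every pair within a group differed by more than sampling noise. The squared difference per gene, relative to sampling noise, was 171.7 for the KO pair and 34.54 to 61.15 for the WT pairs. Library totals of 19650983 to 28860598 give counts for every member of at least 97 in each library.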

Additional observations from a re-analysis of the deposited data

Results flagged for a closer look

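Among 33 genes checked for a WT library far from the other 3, 1 stood apart by Dixon's criterion, where chance would give about 1.65 (1 in 20 groups). For Cacna1h the normalised count was 158.1 in WT-2 and 101.3 to 106.5 in the other WT libraries, a gap of 0.907 of the range.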

How the results depend on the processing

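Stim1 passed in every alternative run. Leaving out 1 library gave 1 to 2 members past adjusted p 0.05 and 8 to 19 genes of the wider list, 7 of the 19 shared with the 10 of the fit over all libraries. The highest of both came without KO-1, where Cacna1c, Itpr2 and Ryr2 passed and Pln, Casq2 and Slc24a3 did not. Over all genes, 1775 passed, and 1113 to 2439 without 1 library (lowest without KO-2), 996 by edgeR with its filter and 931 without. With a 2-fold change added, 962 passed, 636 to 1284 without 1 library and 633 by edgeR with its filter. Causes were not tested, but a fit with 1 KO library takes its spread from WT alone.

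With a replicate block, 628 genes passed, 561 with a 2-fold change, and 1 member and 7 genes of the wider list (Atp2b2, Slc24a3 and Slc8b1 were lost). Same-numbered libraries had correlated deviations of -0.131 and -0.018, over 2 pairs. The deviations of KO-1 and KO-2 from their shared mean mirror each other, so these values cannot decide whether the numbers pair libraries. The labels give no pairing, and the main fit used none. No gene past the test changed direction. Among genes that did not pass, the log2 fold change spanned 0 when 1 library was left out for Itpr1 (-0.511 to 0.14), Atp2a2 (-0.362 to 0.439), Atp2b1 (-0.196 to 0.018), Trpc1 (-0.142 to 0.222), Itpr3 (-0.172 to 0.147), Ryr2 (-0.838 to 0.351), Ryr3 (-0.205 to 1.278) and Stim2 (-0.229 to 0.607), and for Sln, at 0 in KO-2, the fitted value went from -5.75 without KO-1 (no adjusted p) to 5.33 without KO-2. Signs also changed with the replicate block for Itpr3 (0.18) and Tgfbr2 (0.10) and with total counts for Itpr3 (0.037). Total-count scaling moved the median log2 fold change of all genes tested to 0.052, from 0.012. With 2 KO libraries that differ in mitochondrial share and cell type markers, differences below about the spread of the KO libraries could not be resolved.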

Other observations

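One relative of the members was singled out after its values were seen. Cacna1g, the T-type pore CaV3.1, held 332.8, 308.9, 245.7 and 292.4 normalised counts in WT, 717.0 in KO-1 and 302.4 in KO-2. Its log2 fold change was 0.79 (DESeq2 adjusted p = 0.103). Without KO-2 it was 1.29, in a fit that kept KO-1, the KO library with the higher cardiac marker sum, though not for every cardiac marker. The part of those markers was not tested.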
